A study of Mus musculus with 16 samples.

Results

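A retained intron is an intron that some spliced transcripts of a gene remove and others keep inside a longer exon. Such introns were taken here from the merged transcript assembly of the series: an intron of one spliced transcript that lay wholly inside an exon of another spliced transcript of the same gene model. The assembly held 281136 different introns in 104009 spliced transcripts. Of these, 9319 lay inside such an exon, and 5173, or 1.84% of all introns, also had enough signal to be measured. Enough signal was a summed value of at least 50 for the retained and the spliced forms together, in at least 6 of 8 tissues of a capture design. The lncRNA capture measured 2521 of them and the splice junction capture 4090, and 1438 were measured in both. Retention of an intron is the summed value of the multi-exon transcripts that keep it, as a percentage of that sum plus the transcripts that splice out exactly that intron.

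Capture sequencing pulls down chosen RNA-derived fragments with oligonucleotide probes before sequencing. The study applied a pair of probe designs to adult C57BL/6J mice, one against exons of long noncoding RNAs (lncRNA capture) and one against the exon ends that flank known splice junctions (splice junction capture), leaving out the most abundant of these regions. Each design was used on 8 tissues with 1 library each, 16 libraries in all. Ribosomal RNA was depleted from the tissue RNA before libraries were made, and no separation of nuclear from other RNA is described. Brain was sampled 4 times, as the whole organ and as cerebellum, cortex and olfactory bulb. The other 4 organs, called nonbrain, were heart, kidney, liver and one labelled testis. Whole brain contains the other 3 tissues of its group, and the number of mice is not given in the sources used here. Brain tissue was snap frozen and extracted with TRIzol, whereas nonbrain organs were kept in RNAlater and extracted on RNeasy columns. Brain and nonbrain libraries were also hybridized in separate pools and amplified after capture for different numbers of cycles. These steps and the tissue class cannot be told apart. Before capture, the samples the paper names brain and liver were amplified for more cycles than all others. The part of that step in the results was not tested.

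Introns are removed while or shortly after a transcript is made. A transcript that keeps an intron may be held in the nucleus and spliced later, may be exported and destroyed by nonsense-mediated decay when the intron brings in an early stop codon, or may be a stable product of its own. Retained introns are known to be short, to lie in genes of many functions, and to differ between cell types, with neurons among the well-studied cases.

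The splice sites of introns that the results turn on are shown first, each with 3 exon bases and 6 intron bases at the 5′ end and with 20 intron bases and 3 exon bases at the 3′ end. They were read from GENCODE M21 transcripts whose exon contains the intron, are written 5′ to 3′ on the strand of the gene, and have the first and last intron dinucleotides in capitals. Bbs9 (chr9:22887997-22888226, plus strand), Med12 (chrX:101294013-101294087, plus strand) and Rpl7a (chr2:26910831-26911005, plus strand) held introns kept more in brain. Shkbp1 (chr7:27355447-27355572, minus strand), Cadps2 (chr6:23838972-23839058, minus strand) and Tmem25 (chr9:44798758-44799180, minus strand) held introns kept less in brain. Stoml2 (chr4:43029067-43029278, minus strand) and Meg3 (chr12:109568595-109571390, plus strand) were the introns, among those named for the lncRNA capture, whose calls did not rest on any single tissue. All coordinates are on GRCm38 and count from 1. The Cadps2 intron alone among these 8 starts with GC instead of GT.
Bbs9 donor: gagGTgact
Bbs9 acceptor: tagcccatttttttccacAGgat
Med12 donor: cagGTacca
Med12 acceptor: taccaatcctactcttgtAGatc
Rpl7a donor: atgGTgagt
Rpl7a acceptor: ggtttctctcttccgtacAGccc
Shkbp1 donor: cagGTgatt
Shkbp1 acceptor: tcggtttccccttcctgtAGtct
Cadps2 donor: cggGCgtct
Cadps2 acceptor: tggtggcagcggcggcggAGcgg
Tmem25 donor: cagGTgagc
Tmem25 acceptor: tggtactcttctctcagcAGcct
Stoml2 donor: catGTgaga
Stoml2 acceptor: tttatgcactgtggctacAGaat
Meg3 donor: gagGTtgta
Meg3 acceptor: tgcagctgtgtctctctcAGcct

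The libraries held 8930243 to 43889289 fragments, as recovered from the smallest step between values. A summed value of 50 stood for 10.5 fragments in the heart library of the lncRNA capture and for 173 fragments in the whole-brain library of the splice junction capture, so heart values were the least precise. The intron just inside the limit had 50.3 in its sixth-best tissue in the lncRNA capture and 50.025 in the splice junction capture, and the one just outside had 49.9 and 49.9994. Within 40 to 50 lay 291 and 301 introns that were left out, and within 50 to 60 lay 229 and 273 that were kept. In the splice junction capture the heart muscle marker Myh6 was at 0 in heart and 13063 in liver. The kidney tubule marker Lrp2 was at 0 in kidney and 46590 in labelled testis, and the hepatocyte marker Ttr had no value. The reason for these gaps was not tested. Marker genes were highest in the labelled organ for 4 of 5 heart muscle genes, 4 of 5 kidney tubule genes and 4 of 5 hepatocyte genes, and neuron genes were highest in brain tissues. The libraries labelled testis did not match theirs: germ cell markers summed to 39.5 there in the splice junction capture, the lowest of any tissue, with Prm2, Tnp1 and Acrv1 at 0, and 5 of 6 keratinocyte markers were highest there, with a sum of 107787 against at most 4159 in any other tissue. They are called labelled testis below. Some markers of a nonbrain organ also had values in the other nonbrain libraries of this capture. Slc34a1, of kidney tubules, was at 137131 in kidney, at 2907, 3334 and 1350 in heart, liver and labelled testis, and at most 1.21 in brain tissues. Krt14 was at 51523 in labelled testis, 872 to 2155 in the other nonbrain tissues and at most 2.31 in brain tissues. Whether the nonbrain libraries share signal was not tested, and their independence as units is assumed. The whole-brain libraries also stood apart, since their introns were retained less than those of the 3 brain subregions, and results are given with and without them.

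The 5173 introns lay in 2776 gene models. Of these models 1609 held 1 such intron, 1167 held at least 2, and 151 held at least 5, with 14 as the highest number. A gene model can join more than 1 annotated gene, and 40 models held introns of 2 or more gene symbols. Levels given below for a host gene are those of its gene model. Protein-coding genes held 4768 of the introns (92.2%). Genes of long noncoding RNAs held 338 of 2521 in the lncRNA capture (13.4%) and 56 of 4090 in the splice junction capture (1.37%). Introns were placed by their commonest position in annotated coding transcripts with the exact intron, or else in those covering it. Transcripts of the nonsense-mediated decay type counted as coding. By this rule 3534 introns (68.3%) interrupted coding sequence, 616 lay in 3′ untranslated regions and 309 in 5′ untranslated regions. A further 75 lay at an edge of the coding sequence and 639 had no coding transcript around them. An intron placed in a 3′ untranslated region can interrupt coding sequence in another transcript, as the 363 nt Clk1 intron did.

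The exon that kept the intron was an internal exon for 2801 introns (54.1%), a last exon for 1797 and a first exon for 946, and some introns had exons of more than one kind. For 3301 introns (63.8%) at least 1 such exon ended at the ends of both flanking exons of the spliced form, which is the textbook shape of intron retention. The other introns were covered only by exons with other ends, which include exons that begin or end a transcript. GENCODE M21 held the exact intron in 4675 cases (90.4%) and an exon over it in 4371 (84.5%), and 2953 introns (57.1%) were covered by a transcript that GENCODE types as retained_intron. Because 2102 introns shared their covering span with another intron, neighbouring introns often had the same values and were not independent.

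Retained introns were short. Their median length was 366 nt (quartiles 169 to 830 nt), against 1197 nt (quartiles 381 to 3184 nt) for the 53130 other introns of the same gene models. Introns under 150 nt made up 22.9% of the retained introns and 12.3% of the others, and introns over 2000 nt made up 6.71% and 36.3%. The longest retained intron, 36458 nt, lay in Kcnq1ot1, an imprinted antisense lncRNA. These lengths are a description, since a short intron fits inside an exon more easily than a long one.

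Sequence was read for 4351 introns, of which 4335 were at least 40 nt long. GT-AG ends were found in 4107 of them (94.7%), GC-AG in 103 and AT-AC in 16. The median GC content was 49.9% in the introns and 51.1% in the transcripts that kept them. For 2954 introns a coding transcript fixed the reading frame. Reading on from the upstream exon met a stop codon inside the intron in 2686 of these (90.9%), with its first base at a median of base 38 of the intron. The 268 introns without such a stop had a median length of 98 nt, against 393 nt for those with one, and 111 of the 268 had a length divisible by 3.

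**Figure D1:**
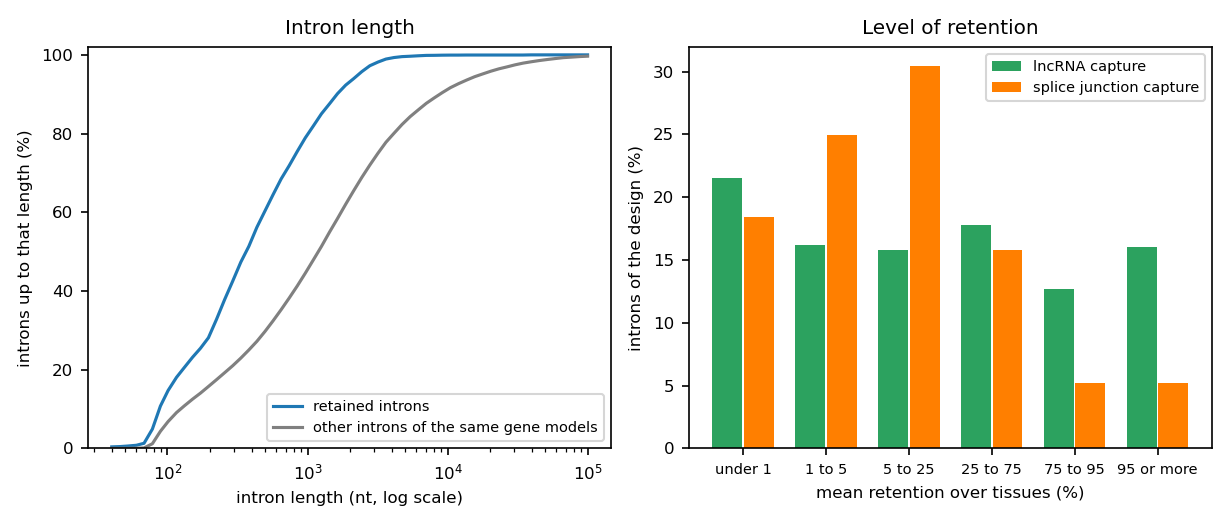
Left, the percentage of introns up to a given length in nt (log axis) for the retained introns and for the other introns of the same gene models, with medians of 366 and 1197 nt. Right, bars give the percentage of introns of each capture design by mean retention over tissues in %; 16.1% of lncRNA capture introns and 5.23% of splice junction capture introns had a mean of 95% or more.

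Retention covered the whole range from almost none to almost complete. The median over introns of the mean retention was 17.5% in the lncRNA capture and 6.72% in the splice junction capture. Of the lncRNA capture introns 542 lay under 1%, 408 from 1% to 5%, 398 from 5% to 25%, 448 from 25% to 75%, 320 from 75% to 95% and 405 at 95% or more. For the splice junction capture the same classes held 752, 1020, 1245, 646, 213 and 214 introns. The lncRNA capture thus had larger shares at both ends of the range, with 21.5% and 16.1% of its introns in the lowest and highest class, against 18.4% and 5.23% in the splice junction capture. Of introns measured in all 8 tissues, 276 of 1827 in the lncRNA capture and 371 of 3229 in the splice junction capture stayed between 10% and 90% in every tissue, whereas 276 and 125 were above 90% in every tissue.

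Place in the gene went with the level. Introns in coding sequence had a median mean retention of 4.24% in the lncRNA capture (1534 introns) and 5.81% in the splice junction capture (3114 introns). In 3′ untranslated regions the medians were 53.5% (312 introns) and 10.4% (477 introns), and without a coding transcript they were 78.8% (519 introns) and 51.0% (203 introns). Where GENCODE types a covering transcript as retained_intron the medians were 3.82% and 5.27%, and where no GENCODE transcript covered the intron they were 68.2% and 12.6%. In the splice junction capture introns under 150 nt had a median of 12.1%, and introns over 2000 nt one of 4.11%. These differences between classes were not tested.

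The libraries differed in their typical level. In the splice junction capture the median retention over 3229 introns was 2.05% in whole brain, 9.09% in cerebellum, 7.01% in cortex and 9.37% in olfactory bulb, against 2.95% in heart, 3.42% in kidney, 3.06% in liver and 4.42% in labelled testis. The 3 brain subregions were above every nonbrain tissue, and whole brain was below every one of them. For the lncRNA capture the medians over 1827 introns were 15.8% in whole brain, 25.6% in cerebellum, 24.9% in cortex and 26.1% in olfactory bulb, against 17.2%, 17.7%, 15.4% and 18.1% in heart, kidney, liver and labelled testis. Here whole brain fell among the nonbrain tissues. In both designs it was the only brain library that did not lie above every nonbrain tissue.

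Intron by intron, whole brain was below all 3 subregions for 53.3% of introns in the lncRNA capture and for 68.9% in the splice junction capture. The 3 subregions were all above the 4 nonbrain tissues for 17.95% and 37.13% of introns, and all below them for 5.53% and 3.31%. Single-exon transcripts, which include unspliced RNA, took 48.5%, 41.3% and 52.2% of the fragments outside the spike-ins in the lncRNA capture libraries of cerebellum, cortex and olfactory bulb, against 26.5% in whole brain and 24.6% to 29.9% in the nonbrain tissues. Their part in the retention levels was not tested.

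**Figure D2:**
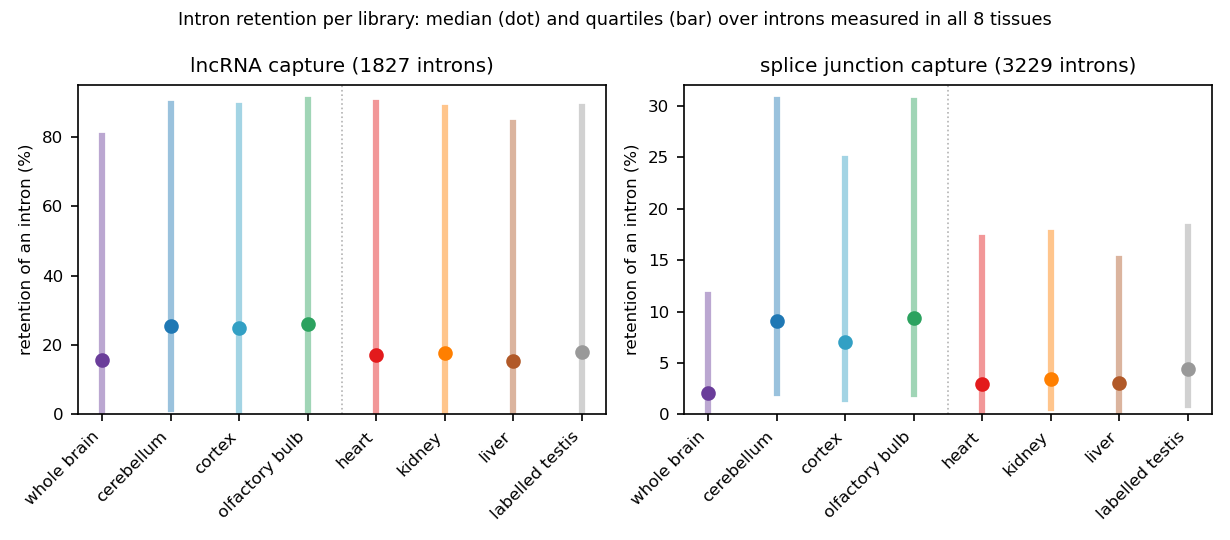
Retention of an intron in % for each library, with the median as a dot and the quartiles as a bar, over the 1827 introns (lncRNA capture) and 3229 introns (splice junction capture) measured in all 8 tissues. Cerebellum, cortex and olfactory bulb lie highest in both designs and whole brain lies level with or below the nonbrain tissues, at 15.8% and 2.05%.

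Whether introns are retained more in brain than in other tissues was tested with the tissues as the units, 4 against 4, on the log2 of the ratio of retained to spliced value, with 1 added to each. A difference of 1 on this scale, called log2 odds here, is a 2-fold higher ratio. limma tested each intron and p-values were adjusted by the Benjamini-Hochberg method over all introns of a design, with 0.05 as the limit. In the splice junction capture 229 of 4090 introns passed (5.6%), 188 retained more in brain (4.6%) and 41 retained less (1%). They lay in 166 gene models and made up 201 different sets of values. Brain and nonbrain values did not overlap for 200 of the 229, and for 13.8% of all introns measured.

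The median difference over all 4090 introns was 1.14 percentage points and 0.62 log2 odds, and 70.4% of introns had a positive difference. Of the 188 introns retained more in brain, 107 differed by over 10 percentage points, as did 26 of the 41 retained less. The retained form held most of the summed value only in brain for 49 of the called introns and only in nonbrain tissues for 6. These levels are those of this capture, and many introns had other levels in the lncRNA capture, as described below. Coding-sequence introns were called higher in 148 of 3114 cases and lower in 23, and introns in 3′ untranslated regions higher in 15 of 477 and lower in 6. Introns with a mean retention of 25% to 75% were called higher in 57 of 646 cases, against 59 of 1772 under 5%.

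These counts leaned on single libraries. limma called 927 of 4044 introns (22.9%) without whole brain, of which 862 were higher and 65 lower in brain, and 227 of the 229 were among them. Without cerebellum it called 57, without cortex 40 and without olfactory bulb 55. Without heart it called 188, without kidney 109, without liver 100 and without labelled testis 144. When only internal exons were counted as retaining, 120 of 2301 introns passed, and with exons that end at both flanking exon ends 105 of 2580 passed. For a single intron with all 8 tissues the smallest p that an exact two-sided permutation test of the tissues can give is 0.0286, over 70 assignments. With 1 library per tissue, p-values measure the spread between these tissues.

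**Figure D3:**
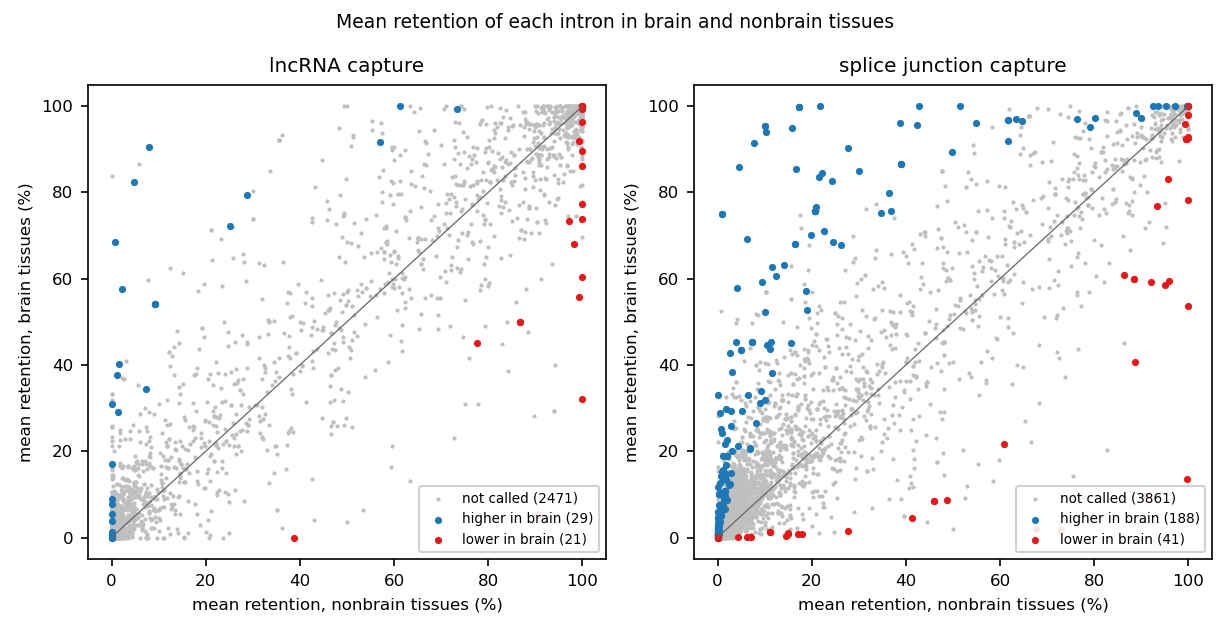
Mean retention of each intron in brain tissues (vertical axis, %) against nonbrain tissues (horizontal axis, %), one panel per capture design, with called introns coloured by direction and the diagonal marking equal values. Colours follow the log2 odds difference, with 188 introns higher and 41 lower in brain in the splice junction capture, and 29 and 21 in the lncRNA capture. Of the called introns, 2 of 229 and 2 of 50 had the opposite sign in percentage points and lie on the other side of the diagonal.

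The 10 introns with the largest differences in each direction are described first for the splice junction capture. Brain values are ordered as whole brain, cerebellum, cortex, olfactory bulb. The order of nonbrain values is heart, kidney, liver, labelled testis. A value of 0% is one under 0.05%, and a tissue under the signal limit is named as not measured. Some of these introns had no covering exon that ended at both flanking exon ends. They include those of Gnpda2, Itgb1bp2, Git1, Cadps2, Hps5 and Gm29253 and the 137 nt Cfb intron. For them, retention and a covering exon with another start or end cannot be told apart. Of the 10 introns retained more in brain, 9 stayed called in every leave-out that was run, as did 6 of the 10 retained less. For Itgb1bp2 and the 137 nt intron of Cfb, measured in 2 brain tissues, no fit was made without either of these, so 6 leave-outs stand behind each of them instead of 8.

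Bbs9 encodes a subunit of the BBSome, which carries proteins into cilia. Its 230 nt intron in the 3′ untranslated region was retained at 95.6%, 92.5%, 93.9% and 93.7% in brain, against 17.7%, 9.0%, 4.8% and 9.5% in nonbrain tissues. The groups lay far apart. In this capture the retained form held most of the summed value in every brain tissue and in no other. The means were 93.9% ± 1.3 in brain and 10.3% ± 5.4 in nonbrain tissues (SD, n = 4 each), a difference of 7.24 ± 0.53 log2 odds (SE; limma, adjusted p = 0.0002). At least 759 fragments stood behind each value. The gene model as a whole was higher in brain by 2.01 log2 units (limma, adjusted p = 0.0052, n = 4 each).

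Med12 encodes a subunit of the kinase module of Mediator, which links transcription factors to RNA polymerase II. Its 75 nt coding-sequence intron was retained at 99.7%, 75.1%, 99.2% and 91.7% in brain, against 10.7%, 8.3%, 4.0% and 8.3% in nonbrain tissues. Cerebellum was the lowest brain tissue and still far above every nonbrain tissue. The difference was 8.60 ± 1.27 log2 odds (SE; limma, adjusted p = 0.01, n = 4 each). The host gene did not pass the test (0.63 log2 units, limma, adjusted p = 0.11, n = 4 each).

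Bicd2 encodes an adaptor that joins cargo to the motor protein dynein. Its 1717 nt coding-sequence intron was retained at 69.8%, 61.4%, 68.6% and 76.9% in brain, against 3.8%, 8.6% and 6.5% in heart, liver and labelled testis, with kidney not measured. All brain values lay above all nonbrain values, by 5.00 ± 0.55 log2 odds (SE; limma, adjusted p = 0.0043, n = 4 and 3). An in-frame TAG stop codon began at base 97 of the intron. The lncRNA capture gave 100%, 66.8%, 100% and 79.7% for this intron in brain, against 0% in heart and 11.5% in labelled testis, from as few as 20 fragments, and the difference did not pass (8.79 log2 odds, limma, adjusted p = 0.11, n = 4 and 2).

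Map7d2 encodes a microtubule-associated protein. Its 164 nt intron in the 5′ untranslated region was retained at 100% in all 4 brain tissues, against 9.3%, 33.6%, 20.5% and 23.9% in nonbrain tissues. The labelled testis value rested on 5628 fragments, against 90, 88 and 116 in heart, kidney and liver. The difference was 10.32 ± 0.58 log2 odds (SE; limma, adjusted p = 5.5e-05, n = 4 each), and the host gene was higher in brain by 5.24 log2 units (limma, adjusted p = 0.0068). This direction depends on the forms set against each other. With every spliced transcript that spans the intron in the denominator, whatever introns it uses there, the difference was -1.45 log2 odds and did not pass.

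Slc6a20b encodes a member of the SLC6 family of sodium-coupled transporters. Its 1018 nt intron was retained at 96.6%, 98.3% and 91.0% in cerebellum, cortex and olfactory bulb, with whole brain not measured, against 8.7%, 1.8%, 7.4% and 22.0% in nonbrain tissues. The kidney value, the lowest, rested on 31321 fragments. Brain lay above nonbrain by 7.97 ± 0.95 log2 odds (SE; limma, adjusted p = 0.005, n = 3 and 4).

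Gnpda2, an enzyme of glucosamine 6-phosphate breakdown, had a 2537 nt intron retained at 99.9%, 93.0% and 92.0% in cerebellum, cortex and olfactory bulb, against 9.4%, 16.1% and 22.2% in heart, kidney and labelled testis, with whole brain and liver not measured. Itgb1bp2 encodes melusin, a muscle protein that binds integrin tails. Its 79 nt intron was retained at 100% in cerebellum and 99.4% in olfactory bulb, the brain tissues measured, against 3.4%, 27%, 6.4% and 32.0% in nonbrain tissues. The heart value rested on 8011 fragments and no other tissue had more than 226. Kidney, liver and labelled testis had 85, 118 and 96, and whether these came from their own tissue was not tested. Both introns passed, at 7.0 ± 1.02 log2 odds for Gnpda2 (SE; limma, adjusted p = 0.014, n = 3 each) and 8.90 ± 1.15 for Itgb1bp2 (SE; limma, adjusted p = 0.011, n = 2 and 4).

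Glyctk encodes glycerate kinase, which acts in the breakdown of serine and fructose. Its 1118 nt intron in the 3′ untranslated region was measured in both designs. The lncRNA capture had it at 79.2%, 58.7%, 76.2% and 74.9% in brain, against 29.2%, 23.7%, 21.7% and 25.7% in nonbrain tissues. The splice junction capture had it at 81.1%, 86.2% and 88.7% in whole brain, cortex and olfactory bulb, against 18.5%, 14.3%, 9.3% and 24.5%. Brain and nonbrain values stayed apart in both. The difference was 3.0 ± 0.44 log2 odds in the lncRNA capture (SE; limma, adjusted p = 0.021, n = 4 each) and 4.87 ± 0.59 in the splice junction capture (SE; limma, adjusted p = 0.0051, n = 3 and 4). The lncRNA capture call was lost without cortex, olfactory bulb, kidney or liver (limma, highest adjusted p = 0.07).

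Cfb encodes complement factor B, made mainly in liver. A single covering transcript and 8 spliced transcripts defined each of its introns, so the values of neighbouring introns share their denominators. The 137 nt intron was retained at 72.8% in cerebellum and 77.1% in olfactory bulb in the splice junction capture, against 1.5%, 0.6%, 0.7% and 0.6% in nonbrain tissues (8.5 ± 0.67 log2 odds, SE; limma, adjusted p = 0.0011, n = 2 and 4). The lncRNA capture had the same intron at 0% in every tissue. It is counted among the introns called higher in brain there, but with almost no retained signal the ratio follows the added 1 and the level of the spliced transcripts, so no direction is read from it. The 83 nt intron of Cfb was at 81.9%, 98.5%, 91.2% and 90.9% in brain in the lncRNA capture, against 18%, 1.2%, 0.9% and 11.3% in nonbrain tissues, but at 3.3% and 5.5% in cerebellum and olfactory bulb in the splice junction capture, against 41.8%, 58.6%, 54.2% and 10.1%. The difference of this intron had opposite signs in the designs, and the test between them did not pass (limma, adjusted p = 0.08). Cfb itself was lower in brain in the splice junction capture (-5.94 log2 units, limma, adjusted p = 0.0035, n = 4 each), and these introns rested on 96928 fragments in liver and on at most 248 in any brain tissue.

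Psme4 encodes PA200, an activator of the proteasome. Its 218 nt intron was retained at 46.2%, 100%, 100% and 97.7% in brain, against 3.7%, 9.8%, 1.1% and 3.4% in nonbrain tissues. Whole brain was far below the other brain tissues and still above every nonbrain tissue. The difference was 10.68 ± 1.89 log2 odds (SE; limma, adjusted p = 0.016, n = 4 each), and the call was lost without cerebellum, cortex or olfactory bulb (limma, highest adjusted p = 0.058).

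Introns retained less in brain were led by Tmem25, which encodes a transmembrane protein of the immunoglobulin superfamily. Its 423 nt intron in the 5′ untranslated region was retained at 5.2%, 7.6%, 11.5% and 29.7% in brain, against 99.0%, 99.9%, 99.9% and 99.8% in nonbrain tissues. In this capture spliced transcripts held most of the summed value in every brain tissue, and the retained form did in every other tissue. The means were 13.5% ± 11.1 and 99.7% ± 0.44 (SD, n = 4 each), a difference of -11.68 ± 0.95 log2 odds (SE; limma, adjusted p = 0.00034). The host gene was lower in brain (-4.05 log2 units, limma, adjusted p = 0.035).

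Git1 encodes a GTPase-activating protein for ARF that also acts as a scaffold at synapses. Its 162 nt coding-sequence intron was retained at 1.3%, 20.4%, 4.9% and 11.8% in brain, against 83.4%, 95.2% and 94.3% in heart, kidney and labelled testis, with liver not measured. The groups did not overlap, and the difference was -7.10 ± 1.02 log2 odds (SE; limma, adjusted p = 0.011, n = 4 and 3). It lost its call only with every spanning transcript in the denominator. The heart value rested on 31 fragments.

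Shkbp1 encodes a protein that binds the adaptor CIN85. Its 126 nt intron in the 3′ untranslated region was retained at 1.2%, 2.2%, 1.6% and 2.0% in brain in the splice junction capture, against 68.9%, 71.6%, 74.3% and 76.5% in nonbrain tissues. Each group was tight and the gap between them wide. The difference was -7.20 ± 0.44 log2 odds (SE; limma, adjusted p = 6.1e-05, n = 4 each), while the gene model was higher in brain by 3.82 log2 units (limma, adjusted p = 5.3e-05). The lncRNA capture put the same intron at 23.3%, 29.2%, 31.1% and 33.5% in brain, against 17.9%, 20.8%, 17.2% and 16.0% in nonbrain tissues, so brain was the higher group there, without passing the test (0.92 log2 odds, limma, adjusted p = 0.37, n = 4 each).

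Cadps2 encodes a protein that primes dense-core vesicles for release. Its 87 nt intron with GC-AG ends was retained at 48.1%, 54.2%, 51.2% and 61.5% in brain in the splice junction capture, against 100%, 100%, 99.5% and 100% in nonbrain tissues. Those of the lncRNA capture were 93.0%, 89.3%, 88.0% and 87.8% in brain, against 100% in all 4 nonbrain tissues. In both designs brain had the larger share on the 1 assembled transcript that splices this intron out. The intron had a GC content of 83.9%, and reads across it were not examined. The differences were -4.87 ± 0.98 log2 odds in the lncRNA capture (SE; limma, adjusted p = 0.046, n = 4 each) and -7.90 ± 0.60 in the splice junction capture (SE; limma, adjusted p = 0.00021, n = 4 each). The lncRNA capture call was lost without cerebellum, cortex, olfactory bulb, kidney or liver (limma, highest adjusted p = 0.13).

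Etl4 had a 685 nt coding-sequence intron retained at 3.8%, 2.1%, 3.7% and 8.3% in brain, against 51.2%, 42.7%, 39.1% and 32.3% in nonbrain tissues. The difference was -4.06 ± 0.55 log2 odds (SE; limma, adjusted p = 0.0054, n = 4 each). The noncoding gene A330023F24Rik had a 1811 nt intron whose mean retention was 40.7% ± 6.7 in brain and 88.5% ± 3.0 in nonbrain tissues (SD), a difference of -3.48 ± 0.52 log2 odds (SE; limma, adjusted p = 0.013, n = 4 and 3). The lncRNA capture had this intron at 63.2% to 80.3% in brain, against 94.8% to 99.2% in nonbrain tissues. Both kept their splice junction capture calls without each tissue.

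The other 4 introns of this direction lost their calls without some tissues. Hps5, which encodes a subunit of a complex needed for lysosome-related organelles, had an intron at 4.4%, 9.4%, 7.8% and 12.6% in brain, against 28.6%, 47.5%, 52.3% and 55.6% in nonbrain tissues. Its call was lost without cerebellum or cortex (limma, highest adjusted p = 0.058), and its difference was 0.35 log2 odds with every spanning transcript in the denominator. Gm29253 averaged 59.5% ± 15.0 in brain and 95.9% ± 3.0 in nonbrain tissues (SD, n = 4 each) and lost its call without cortex alone (limma, adjusted p = 0.058). Tk2, the mitochondrial thymidine kinase, averaged 21.8% ± 7.2 in brain and 60.8% ± 9.6 in nonbrain tissues, and Adam11, a member of the ADAM family that lacks protease activity, averaged 8.8% ± 7.6 in 4 brain tissues and 48.7% ± 16.8 in 3 nonbrain tissues. Each of these 2 kept its call in 2 of 8 leave-outs.

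**Figure D4:**
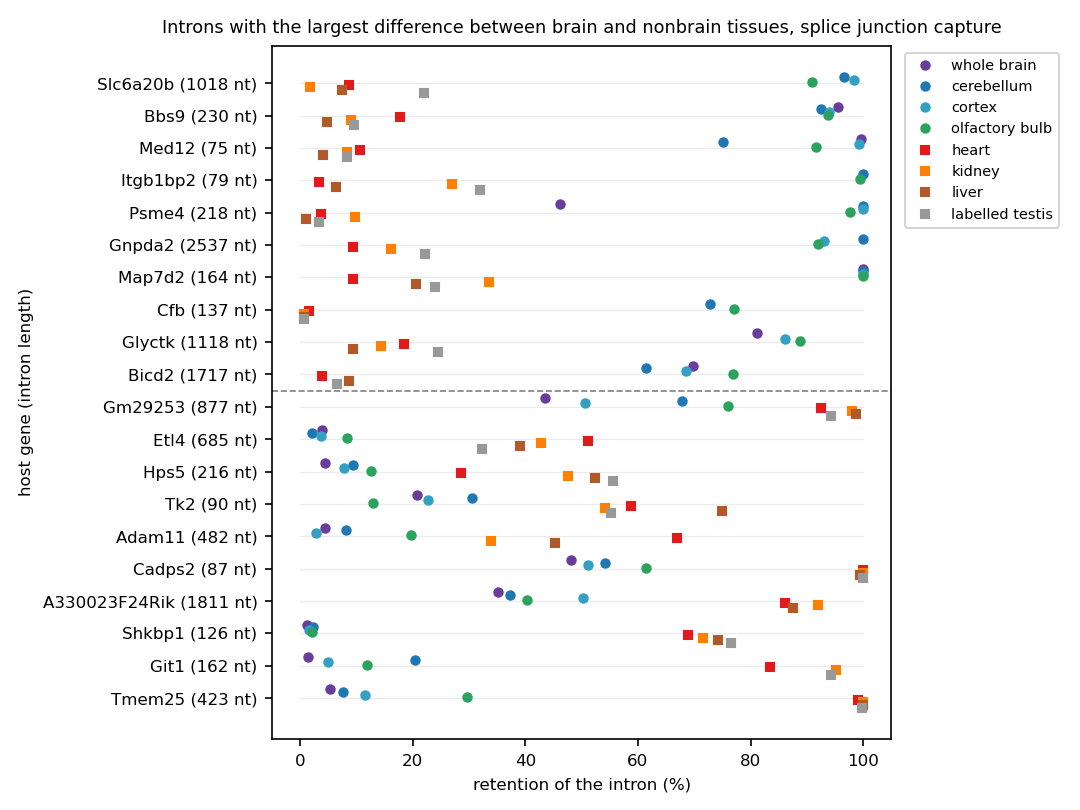
Retention in % of the 10 introns with the largest difference in each direction in the splice junction capture, with brain tissues as circles and nonbrain tissues as squares, and a dashed line between the introns higher and lower in brain. Bbs9 has its 4 brain values between 92.5% and 95.6% and its 4 nonbrain values between 4.8% and 17.7%, and Tmem25 shows the opposite order.

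The same test in the lncRNA capture called 50 of 2521 introns (1.98%), 29 retained more in brain (1.15%) and 21 retained less (0.833%). Without whole brain limma called 115 of 2448 (4.70%), 91 of them higher in brain, and 47 of the 50 were among them. Without cerebellum, cortex or olfactory bulb it called 11, 8 and 6 introns, without kidney or liver 15 each, without heart 69 and without labelled testis 51. Only 4 of 1270 introns passed when internal exons alone were counted as retaining. Groups did not overlap for 42 of the 50, and for 11.2% of all introns measured. Among the called introns, 3 of 50 in the lncRNA capture and 5 of 229 in the splice junction capture were at 0% in every tissue, and 11 and 28 differed by less than 1 percentage point. For 2 of the 50 and 2 of the 229 the difference in percentage points had the opposite sign to that in log2 odds, and the direction given follows the log2 odds. Of the 10 introns named in each direction, 1 kept its call in all leave-outs run, Stoml2 among those higher in brain and Meg3 among those lower. Introns with no covering exon that ended at both flanking exon ends include those of Atg9a, Gm34471 and Dlg2. The 130 nt intron of A330023F24Rik was also of this kind.

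Stoml2 encodes a stomatin-like protein of the inner mitochondrial membrane. Its 212 nt coding-sequence intron was retained at 30.4%, 47.3%, 44.5% and 39.1% in brain, against 1.0%, 2.2%, 1.7% and 1.8% in nonbrain tissues. An in-frame TGA stop codon began at base 10 of the intron. Brain was higher by 5.33 ± 0.49 log2 odds (SE; limma, adjusted p = 0.0023, n = 4 each), and the host gene was lower in brain (-1.41 log2 units, limma, adjusted p = 0.046). Splice junction capture values were 3.5%, 24.5%, 10.9% and 16.7% in brain, against 7.8%, 3.3%, 7.8% and 10.9% in nonbrain tissues, and the groups overlapped.

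Meg3 is an imprinted lncRNA expressed from the maternal allele, and the gene model was higher in brain by 8.05 log2 units (limma, adjusted p = 0.00016, n = 4 each). Its 2796 nt intron was retained at 30.7%, 32.7%, 29.7% and 35.5% in brain, from 18617 to 203053 fragments, against 100% in heart, kidney and labelled testis, with liver not measured. The nonbrain values rested on 58 to 481 fragments. Brain was lower by a difference of -9.56 ± 0.74 log2 odds (SE; limma, adjusted p = 0.0023, n = 4 and 3), and this call was lost only with every spanning transcript in the denominator. A 107 nt intron of the same gene ran the other way, at 29.8%, 39.2%, 34.5% and 38.1% in brain, against 1.1%, 11.0%, 7.8% and 2.3% in nonbrain tissues, and did not pass (3.6 log2 odds, limma, adjusted p = 0.063, n = 4 each). The differences of these introns of one gene had opposite signs.

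The remaining lncRNA capture introns that were retained more in brain each lost their calls without at least 1 tissue. C030006K11Rik was at 78.3%, 79.3%, 80.7% and 78.8% in brain, against 22.7%, 28.1%, 21.3% and 42.8% in nonbrain tissues, a difference of 3.29 ± 0.46 log2 odds (SE; limma, adjusted p = 0.018, n = 4 each). The splice junction capture gave a smaller one for it, with means of 26.5% ± 7.1 in brain and 8.22% ± 1.93 in nonbrain tissues.

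Celf1 encodes an RNA-binding protein that regulates splicing. A 3163 nt intron and a shorter 88 nt intron from the same 5′ splice site both passed. The longer was retained at 75.5%, 55.0%, 99.5% and 100% in brain, against 0%, 19.3%, 0% and 0% in nonbrain tissues, but from only 20 to 59 fragments. It gave 8.65 ± 1.61 log2 odds (SE; limma, adjusted p = 0.035, n = 4 each) and in the splice junction capture, from more fragments, averaged 2.66% ± 2.13 in brain and 0.43% ± 0.59 in nonbrain tissues. The other 5 of this direction, Atg9a, 9230116N13Rik, Gm34471, E230016M11Rik and the Cfb intron described above, differed by 34.8 to 82.8 percentage points. Atg9a and Gm29253 were placed in the same gene model by the assembly.

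Luc7l3 encodes a protein associated with the U1 snRNP, which recognises 5′ splice sites. Its 105 nt intron was retained at 33.3%, 50.5%, 50% and 46.5% in brain, against 71.6%, 78.9%, 80.2% and 79.7% in nonbrain tissues, each from at least 1432 fragments. The groups were apart by -2.10 ± 0.38 log2 odds (SE; limma, adjusted p = 0.032, n = 4 each). An in-frame TAA stop codon began at base 18. Noncoding genes made up most of the others retained less in brain. A230072C01Rik was at 34.4%, 70.5%, 55.7% and 62.3% in brain, against 100%, 100%, 96.8% and 100% in nonbrain tissues, and a 130 nt intron of A330023F24Rik, other than the 1811 nt one above, was at 42.9%, 45.3%, 59.9% and 52.1% in brain, against 77.3%, 90.3%, 89.3% and 90%. Of all 21 introns retained less in brain, 11 lay in lncRNA genes, against 6 of the 29 retained more and 338 of all 2521 (13.4%). Introns with a mean retention of 75% or more, 725 of the 2521, held 15 of the 21 and 3 of the 29. An intron near 100% has little room to be retained more. These shares were not tested against each other. Luc7l3, A230072C01Rik and the 130 nt intron of A330023F24Rik lost their calls without 6, 2 and 5 of the 8 tissues.

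**Figure D5:**
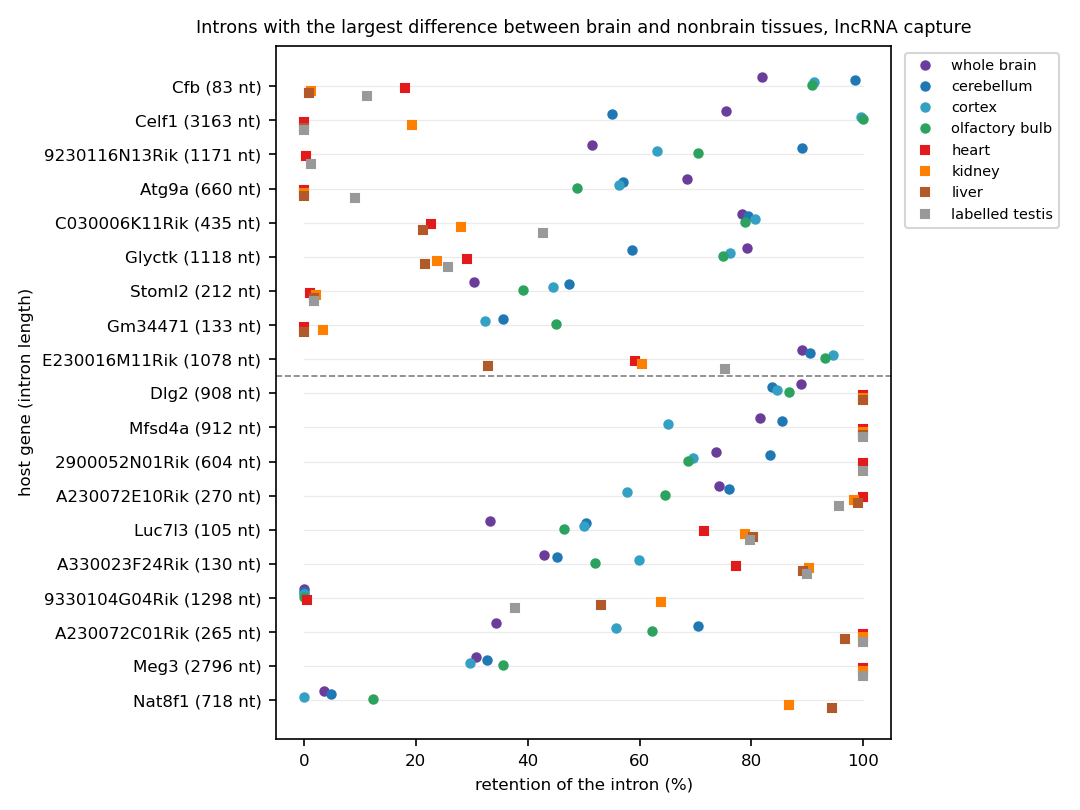
Retention in % of introns with the largest differences in each direction in the lncRNA capture, 9 higher and 10 lower in brain, with brain tissues as circles and nonbrain tissues as squares, and a dashed line between the introns higher and lower in brain. Stoml2 has brain values of 30.4% to 47.3% against 1.0% to 2.2% in nonbrain tissues, and the Meg3 intron has brain values of 29.7% to 35.5% against 100%.

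The level of the host gene was set beside the retention of its intron. Among the introns retained more in brain, the gene model passed as higher in brain for 2 of 29 and as lower for 9 in the lncRNA capture, and as higher for 21 of 188 and as lower for 61 in the splice junction capture. Over all measured introns the host was higher for 8.05% and 13.2%, and lower for 10.4% and 16.7%. Among the introns retained less in brain, it was higher for 6 of 21 and lower for 3 in the lncRNA capture, and higher for 13 of 41 and lower for 6 in the splice junction capture. These shares were not tested against each other, and a gene model's level includes the retained transcripts. In bulk tissue, fewer cells of a type and less RNA per cell cannot be told apart.

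For scale, the use of every alternative intron of the assembly was tested in the same way, as the value of transcripts with the exact intron against all other spliced transcripts across it. By this measure limma called 56 of 2517 retained introns (2.22%), against 875 of 29806 other alternative introns (2.94%), in the lncRNA capture. It called 385 of 4082 (9.43%), against 8622 of 63613 (13.6%), in the splice junction capture. The difference between these shares was not tested. Calls among retained introns were spliced out more in brain for 28 and less for 28 in the lncRNA capture, against 466 and 409 for the other introns. In the splice junction capture the numbers were 89 and 296, against 4456 and 4166. The median difference of intron use was -0.51 log2 units for retained introns and 0.02 for the others in that design.

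Gene lists are set beside all introns of a design. Over all introns, the difference was positive for 64.5% in the lncRNA capture and 70.4% in the splice junction capture. limma called 1.15% and 4.6% higher in brain with all tissues, and 3.72% and 21.3% without whole brain. It called 0.833% and 1% lower with all tissues, and 0.98% and 1.61% without whole brain.

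Ribosomal protein genes held 57 retained introns in the lncRNA capture and 36 in the splice junction capture. Their differences were positive for 45 of 57 and 29 of 36, with medians of 1.00 and 0.59 log2 odds against 0.45 and 0.62 over all introns. limma called 1 of 57 and 2 of 36 higher in brain, and 4 and 5 without whole brain. Rpl7a, of the large ribosomal subunit, had a 175 nt intron at 83.7%, 80.1%, 87.5% and 88.2% in brain, against 39.4%, 31.8%, 28.7% and 20.2% in nonbrain tissues. Every brain value was above every nonbrain value, by 3.67 ± 0.49 log2 odds (SE; limma, adjusted p = 0.0051, n = 4 each), and the call held without each tissue. Its in-frame TGA stop codon began at base 133.

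Rps12, of the small subunit, had a 111 nt intron called in both designs. It was at 4.2%, 3.4%, 2.5% and 5.0% in brain, against 0%, 0%, 0% and 0.5% in nonbrain tissues, in the lncRNA capture. Splice junction capture values were 71.4%, 70.8%, 80.5% and 78.4% in brain, against 33.7%, 43.5%, 40.6% and 20.6%. Brain was the higher group in both designs, and the levels were far apart. The differences were 3.65 ± 0.56 and 2.53 ± 0.51 log2 odds (SE; limma, adjusted p = 0.023 and 0.027, n = 4 each), and each call was lost without 5 of the 8 tissues.

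Respiratory chain genes, which encode subunits of the mitochondrial electron transport complexes and ATP synthase, held 20 introns in each design, of which 18 in the lncRNA capture and 19 in the splice junction capture had a positive difference, with medians of 1.54 and 1.45 log2 odds. limma called 0 of them, and 3 and 4 had an unadjusted p under 0.05. Without whole brain 1 and 5 of the 20 were called higher in brain, near the shares over all introns. Aminoacyl-tRNA synthetase genes, whose products load amino acids onto tRNAs, had positive differences for 10 of 11 and 18 of 23 introns in the lncRNA and splice junction captures and 0 limma calls, with 1 and 9 under an unadjusted p of 0.05. Without whole brain 0 of the 11 and 8 of the 23 were called higher. No list was tested against the other introns.

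Genes of the splicing machinery were measured in both designs. SR proteins and their kinases held 26 and 10 introns, hnRNP proteins 34 and 15, and spliceosome components 50 and 25, in the lncRNA and splice junction captures, and the single limma call among them was Luc7l3. At an unadjusted p under 0.05 the lists held 1, 4 and 5 introns in the lncRNA capture and 2, 1 and 4 in the splice junction capture. Without whole brain 1, 0 and 0 were called higher in the lncRNA capture and 1, 0 and 4 in the splice junction capture, with 0, 1 and 1 lower in the lncRNA capture alone. Genes known for regulated retained introns held 22 and 5 introns, with 0 limma calls, 1 and 3 under an unadjusted p of 0.05, and 0 and 2 called higher without whole brain. Clk1, a kinase of SR proteins known for introns kept in the nucleus, had a 363 nt intron at 3.8%, 19% and 7.1% in cerebellum, cortex and olfactory bulb, against 0% in all 4 nonbrain tissues (2.85 ± 0.70 log2 odds, SE; limma, adjusted p = 0.053, n = 3 and 4). Among 26 listed neural splicing regulators only 2 genes in the lncRNA capture and 1 in the splice junction capture held measured introns, with Celf1 called. Glutamate and GABA receptor genes held none in either design.

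Chromatin modifiers held 42 introns in the lncRNA capture, with 0 called by limma and 3 under an unadjusted p of 0.05, and 52 in the splice junction capture, with 1 called and 9 under an unadjusted p of 0.05. Without whole brain 2 of the 42 and 3 of the 52 were called higher. Crebbp, a histone acetyltransferase, was at 6.0%, 5.3%, 5.5% and 3.6% in brain, against 0%, 0%, 0% and 3.1% in nonbrain tissues (4.30 ± 1.05 log2 odds, SE; limma, adjusted p = 0.047, n = 4 each). Host genes of small nucleolar RNAs held 45 and 12 introns. Of these 1 was called, in Snhg1 in the splice junction capture, with means of 92.4% ± 2.9 in brain and 99.6% ± 0.9 in nonbrain tissues (SD, n = 4 each). Well known lncRNAs held 30 and 8 introns. Meg3 and Kcnq1ot1 were called lower in brain in the lncRNA capture, with the Kcnq1ot1 intron at 99.2%, 98.9%, 99.8% and 99.4% in brain, against 100%, 100%, 99.9% and 100% in nonbrain tissues, less than 1 percentage point apart on average. Clock genes, export and decay factors, and synaptic vesicle genes held 3 to 7 introns in each design, with 0 limma calls and at most 1 intron of a list under an unadjusted p of 0.05.

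Several genes held long runs of retained introns. Mamdc4 held 14, Chrd and Msto1 held 12 each, and Dcaf11 held 11. Ccdc17 and Elmo3 were chosen after their values were seen, because 8 of 10 introns of Ccdc17 and 8 of 9 introns of Elmo3 were called higher in brain in the splice junction capture. Elmo3 encodes a regulator of engulfment and cell migration. Its 88 nt intron was at 82.9%, 93.6%, 96.8% and 99.8% in brain, against 83.8%, 19.4%, 13.2% and 28.2% in nonbrain tissues, in the lncRNA capture, and at 44.9%, 84.3%, 91.0% and 86.5% in brain, against 55.0%, 9.0%, 6.7% and 12.7%, in the splice junction capture. Heart was with the brain tissues in both designs. The 9 Elmo3 introns formed only 4 different sets of values over 2 covering spans, so they were not 9 separate events.

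Some introns differed in a single tissue. Of 2521 introns in the lncRNA capture 42, and of 4090 in the splice junction capture 33, had a highest or lowest tissue at least 50 percentage points from the next. The tissue was heart for 15 of the 42, 9 as the lowest and 6 as the highest, and it was liver at the low end for 11 of the 33. Tymp encodes thymidine phosphorylase, and its 343 nt intron was at 5.3% in liver, from 2583 fragments, against 95.1% to 100% in every other tissue. Tpm1 encodes an alpha-tropomyosin abundant in heart muscle. Its 1286 nt intron was at 11.0% in heart, from 2442 fragments, against 92.8% to 100% in the other 5 tissues measured. An intron of Hdac5, a class II histone deacetylase, was at 86.1% in cerebellum and at 2.6% or less elsewhere. The largest lncRNA capture gaps rested on few fragments, such as the Edc4 intron at 0.1% in heart from 15 fragments, against 100% in the other 5 tissues measured. These gaps have no replicate check.

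The lncRNA and splice junction captures measured the same intron at different levels. Over 1438 introns measured in both, limma with tissue as a factor called 500 higher in the lncRNA capture (34.8%) and 514 lower (35.7%), and 670 of these kept their direction in every tissue measured. The median difference was -0.12 log2 odds, so neither design was higher on balance. Probes of the designs lie in different parts of a transcript, and their part in these differences was not tested.

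The largest differences were complete switches. Cald1, which encodes the actin-binding protein caldesmon, had a 1795 nt intron at 100% in all 8 lncRNA capture libraries, against 0% to 0.5% in the splice junction capture libraries (median 0%). Phkb, a regulatory subunit of phosphorylase kinase, had a 1900 nt intron at 99.6% to 100% (median 100%), against 0% to 4.0% (median 1.55%). Both switched in every tissue. Pbrm1, a subunit of a chromatin-remodelling complex, lay at 93.2% to 100% (median 99.5%), against 0% to 5.1% (median 0%). Parp8 lay at 96.8% to 100%, against 0% to 0.2%. Rnf103, whose product is a ubiquitin ligase, lay at 99.2% to 100%, against 0% to 1.5%, and its intron had GA-TC ends.

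The opposite order was as sharp. Ppp4r3b, a regulatory subunit of protein phosphatase 4, had an 1858 nt intron at 1.9% to 4.3% in the lncRNA capture (median 3.05%), against 99.7% to 100% in the splice junction capture. AU022252 lay at 0% to 0.2%, against 98.5% to 100%, and Simc1 at 0% to 1.0%, against 97.5% to 100%. Izumo1, known for sperm-egg fusion, lay at 0% to 1.0%, against 90.3% to 98.6%. Syvn1, a ubiquitin ligase of the endoplasmic reticulum, lay at 0% to 7.8%, against 100%, in 7 tissues measured in each. All 10 of these introns passed with tissue as a factor, with Syvn1 at the highest adjusted p (limma, 4.0e-07, same direction in all 6 tissues measured in both).

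Whether the brain difference itself depended on the capture was tested as the difference between the effects. limma called 9 of 1432 introns (0.628%), and the Shkbp1 intron described above led them. Its brain effect was 8.11 log2 odds higher in the lncRNA capture than in the splice junction capture (limma, adjusted p = 0.00015, n = 4 tissues per group), and it alone kept the call without each tissue. Ube2b, a ubiquitin-conjugating enzyme, was at 90.6%, 94.7%, 91.1% and 91.0% in brain in the lncRNA capture, against 99.0%, 99.6%, 99.6% and 99.2% in nonbrain tissues. Splice junction capture values of its intron were 1.4%, 13.3%, 8.6% and 17.6% in brain, against 1.8%, 7.3%, 4.2% and 3.8% in nonbrain tissues. Of the introns called in the brain comparison of one design and measured in the other, 14 were called in both, out of 27 for the lncRNA capture and 71 for the splice junction capture, and 0 were called in opposite directions. Both designs were applied to the same 8 tissues, and the sources used here do not say whether the same animals or RNA were used, so a call in both is not independent support.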

How the data were processed

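RNA of 8 tissues was captured with each of 2 probe designs, which gave 16 libraries. The deposited values are a signal: the authors aligned reads of stranded libraries to GRCm38 with TopHat2 and built transcripts in each library with Cufflinks 2.2.1, with GENCODE M4 as the guide. They joined the 16 assemblies into 1 and estimated a normalised number of fragments per transcript with Cuffnorm 2.2.1. Such an estimate divides fragments shared by isoforms between them, so retention here comes from isoform values and not from reads inside the intron. The value of 1 fragment was recovered for each library from sums over gene models: within 0.1 of a step, 100% of sums up to 20 steps were whole. Depth was 8930243 to 43889289 fragments, and values near the limit of 50 are the least precise.

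Introns, exons and strands were read from the deposited transcript assembly. Retention was computed per library, and a tissue entered an intron's fit where its denominator reached 50. Tissues below it were dropped from that fit and no value was imputed. log2((retained + 1)/(spliced + 1)) was fitted with limma 3.58.1 in R 4.3.3, with a trend on the mean log2 denominator and Benjamini-Hochberg adjustment over all introns of a design. Brain was set against nonbrain tissues, the captures were compared with tissue as a factor because both designs were used on each tissue, and the difference of the brain effect was fitted on the per-tissue difference between captures. Host level was log2(gene model value + 1), for models with a mean of at least 10. Tables were made with Python 3.11.15, NumPy 2.4.6 and pandas 2.3.3. The fit of brain against nonbrain was also run on simulated data with some introns moved by 2 or 4 log2 odds. It recovered 87% to 98% of these, and 4.41% to 9.26% of its calls were false. The simulated noise was independent and of the same size for every intron, and no sampling of fragments was simulated. Its size was not fitted to the spread of these data. Shared covering spans and the overlap of whole brain with its subregions were not modelled. These rates therefore hold for the simulated setting and not for the data. Introns were matched to GENCODE M21 by chromosome, strand and coordinates for gene names, types and sequence.

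Named introns were, per design and direction, the 10 largest differences of mean retention among called introns whose groups did not overlap, 1 per gene, plus the 5 largest differences between captures in each direction with the same sign in all tissues, the 5 largest single-tissue gaps per design, and members of gene lists. The members and lists were chosen with earlier results of these data known. Alternatives changed the pseudocount to 0.1 or 5, the denominator limit to 20 or 200, the scale, the variance model, the covering exons and the denominator, and left out each tissue. The 802 introns whose covering exon matched no GENCODE transcript have no sequence here. An intron that this rule named is not reported here.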

Additional observations from a re-analysis of the deposited data

Results flagged for a closer look

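Of 66 groups of 4 tissues tested, 12 had a tissue far from the other 3, where chance gives about 1 in 20. Whole brain had a median retention of 15.8% in the lncRNA capture, against 24.9% to 26.1% in the 3 subregions. Tissues of single introns that stood apart in the lncRNA capture were liver at 96.8% for A230072C01Rik, heart at 77.3% for the 130 nt intron of A330023F24Rik, labelled testis at 9.09% for Atg9a, kidney at 19.3% for Celf1, heart at 71.6% for Luc7l3 and kidney at 99.999% for Mfsd4a. Those in the splice junction capture were liver at 99.5% for Cadps2, heart at 1.54% for Cfb, cerebellum at 99.978% for Map7d2, whole brain at 46.2% for Psme4 and heart at 99.0% for Tmem25. The gap to the nearest other tissue was under 1 percentage point for Mfsd4a, Map7d2, Cadps2, Cfb and Tmem25, where the 4 tissues of that group all lay near 0% or 100%.

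The brain effect differed between captures for 9 introns by limma on the difference itself. On the log2 odds scale the lncRNA capture effect minus the splice junction capture effect was 8.11 for Shkbp1, 6.52 for Wapl, 5.21 for Tti2 and 4.51 for Stoml2, and it was -6.56 for Zfp91, -4.78 for Ube2b, -4.76 for Lncpint, -3.74 for Thrb and -3.69 for Tent2. The Shkbp1 intron kept this call without each tissue, and each of the other 8 lost it without at least 1. Wapl had mean retention of 65.7% ± 18 in brain and 27.8% ± 29.9 in nonbrain tissues in the lncRNA capture, against 91.9% ± 3.8 and 96.4% ± 5.4 in the splice junction capture (SD, n = 4 each). Tti2 was at 0.5% or less in every lncRNA capture library, while the splice junction capture had 0% to 0.8% in brain and 7.8% to 24.2% in nonbrain tissues. For Tent2, Thrb, Ube2b and Lncpint the lncRNA capture values lay within 89.3% to 100%, where small differences in percent are large on the log2 odds scale.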

How the results depend on the processing

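For the splice junction capture (229 called), limma called 98 with a pseudocount of 0.1, 464 with 5, 67 with a denominator of at least 200, 124 on the untransformed share, 135 on recovered fragments, 120 with internal and 105 with bounded covering exons, and 40 to 927 when 1 tissue was left out. For the lncRNA capture (50 called), it called 28 with a denominator of at least 200, 25 on the share, 32 on fragments, 4 with internal and 30 with bounded covering exons, 29 with every spanning transcript in the denominator, and 6 to 115 when 1 tissue was left out. The split of 29 higher and 21 lower in brain became 25 and 4 with every spanning transcript, 4 and 0 with internal covering exons, and 38 and 20 with a pseudocount of 5. The comparison of captures (1014 called) gave 1774 with a denominator of at least 20, 311 with at least 200, 959 to 987 without 1 tissue, and 912 with no replicate block for tissue, that is without the pairing of libraries by tissue. Brain and nonbrain tissues share only accession-order numbers, so no paired analysis was possible between them. The difference of the brain effect (9 called) gave 16 and 19 with pseudocounts of 0.1 and 5, 14 with a denominator of at least 200, and 1 to 11 without 1 tissue. Intron use (931 called in the lncRNA and 9007 in the splice junction capture) gave 588 of 14744 in the lncRNA capture with a denominator of at least 200, 300 to 1230 without 1 tissue, and 4657 to 10474 in the splice junction capture. Host gene calls ranged from 5895 to 8402 and from 4639 to 7034 in the lncRNA and splice junction captures without 1 tissue.

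Of the values of named introns under all settings, 923 stayed on the same side of the threshold, 295 lost the call and 6 gained it. A further 5 changed sign where the main or the changed setting passed. Changes of sign where neither passed are counted among the 923. With every spanning transcript in the denominator the log2 odds difference was 0.0296 for the 130 nt A330023F24Rik intron, 0.35 for the Hps5 intron and -1.45 for the Map7d2 intron of the splice junction capture, and 0.29 for the Dlg2 intron of the lncRNA capture. None of these 4 passed, with adjusted p of 0.204 to 0.974 by limma. On the untransformed share the 137 nt Cfb intron gave -0.0057 percentage points in the lncRNA capture, where every library was at 0%. The cause was not tested. Depth limits the lncRNA capture most, since 50 units stood for 10.5 fragments in heart, and retention rests on isoform estimates that reads inside introns were not set against here.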
